A study of Mus musculus with 2 samples.

Results

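The genes examined were 10 genes known for the premyelinating stage of the oligodendrocyte (OL) lineage, taken by name from the 55450 genes that each library lists: *Bcas1*, *Bcas1os2*, *Enpp6*, *Gpr17*, *Tns3*, *Fyn*, *Neu4*, *9630013A20Rik*, *Fa2h* and *Abtb2*. All 10 symbols were found, each on 1 gene only. The question was in which order these genes appeared and were lost along the OL lineage of the mouse cortex, and whether this differed between a control library and a library from preterm white matter injury (WMI). Stages were set with 4 genes outside the list, *Pdgfra*, *Mog*, *Mobp* and *Mag*.

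In the central nervous system, OL precursor cells (OPCs), which carry the growth factor receptor *Pdgfra*, leave the cell cycle and pass through a short premyelinating stage before they wrap axons. Cells of this stage have lost *Pdgfra* and hold little RNA of late myelin proteins such as myelin oligodendrocyte glycoprotein (*Mog*), myelin-associated oligodendrocyte basic protein (*Mobp*) and myelin-associated glycoprotein (*Mag*). They extend branched processes, and arrest at this stage is a known feature of preterm white matter disease.

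The data were scRNA-seq counts of 2 libraries, 1 control and 1 WMI, in which each RNA molecule is counted once by its unique molecular identifier (UMI). Both were cerebral cortex of C57BL/6 mice labelled as 2 weeks old. Per the labels, the right common carotid artery was ligated under hypoxia for 1 h on postnatal day 7, and the cortex on the ligated side was taken on postnatal day 14, with the same side of the control group as control. The study's text describes an earlier age, a longer hypoxia and sham hemispheres as control. It also describes dissociated cells, whereas the labels name nuclei. Kept barcodes are called cells below. How many mice entered each library is not given in the labels.

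With 1 library per group, no test was run and no difference between the libraries has a replicate check. All intervals are exact 95% intervals (Poisson for levels, binomial for shares, conditional binomial for ratios), which cover counting error only and treat cells as independent. The libraries held 66470806 and 60568639 UMIs. After filtering and removal of predicted doublets, 8755 control cells (median 4428 UMIs) and 7571 WMI cells (median 5086 UMIs) remained, of which 28 barcodes were shared by both libraries. The libraries stood apart in ways that touch the results below. In OL-lineage cells the median mitochondrial share was 0.0861% in control and 0.762% in WMI. A sub-cluster of 147 lineage cells with a median mitochondrial share of 1.41% was found in the WMI library and held 0 control cells. *Xist*, which is transcribed in female cells, was found in 0 of 543 control lineage cells and in 600 of 944 WMI lineage cells. Genes of the Y chromosome were found in 454 control and 539 WMI lineage cells, so that some WMI cells held both. Male cells are here those with genes of the Y chromosome and without *Xist*, 454 in control and 247 in WMI. Results are therefore also given without the sub-cluster and for male cells where these moved a result.

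Promoter sequences were available for 7 of the 10 genes (RefSeq, GRCm38.p6, from 250 bases before to 50 bases after the start of transcription). Because most of the genes were high in the same cells, these windows were searched on both strands for the letters ACAATG and ACAAAG, short cores bound by SOX factors such as SOX10, for the E-box CAGCTG and for the MYRF core CTGGCAC. On the other strand ACAAAG reads CTTTGT, which is also a core of the TCF/LEF factors. ACAATG was present in 4 of the 7 windows (*Bcas1os2*, *Enpp6*, *Tns3* and *9630013A20Rik*) and in 12.6% of 32817 promoter windows of the same length. CAGCTG was present in 2 of the 7 (*Bcas1os2* and *9630013A20Rik*) and in 16.3% of all windows. ACAAAG was in 0 of the 7 and 18.7% of all windows, and CTGGCAC in 0 of the 7 and 5.01% of all windows. A match of this length is a description of the letters and not evidence of binding.

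The windows of *Enpp6*, *9630013A20Rik* and *Bcas1os2* are given here 5′ to 3′ on the strand of the gene, because *Enpp6* and *9630013A20Rik* had the highest ratio of the premyelinating over the *Pdgfra*-only gate in control and in WMI, and *Bcas1os2* was the gene at least 1.5-fold lower in the WMI library. Capitals mark ACAATG and CAGCTG on the strand shown. *Enpp6* lies at chr8:46986637-46986936 (plus strand), *9630013A20Rik* at chr14:84476375-84476674 (minus strand) and *Bcas1os2* at chr2:170356111-170356410 (plus strand), where the window also overlaps an exon of *Bcas1* on the opposite strand.
Enpp6: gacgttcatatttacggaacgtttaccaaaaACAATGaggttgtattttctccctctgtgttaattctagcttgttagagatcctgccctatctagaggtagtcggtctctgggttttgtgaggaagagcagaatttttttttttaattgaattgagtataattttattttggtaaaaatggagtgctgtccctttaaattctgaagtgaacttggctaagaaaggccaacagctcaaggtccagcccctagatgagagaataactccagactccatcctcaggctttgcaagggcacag
9630013A20Rik: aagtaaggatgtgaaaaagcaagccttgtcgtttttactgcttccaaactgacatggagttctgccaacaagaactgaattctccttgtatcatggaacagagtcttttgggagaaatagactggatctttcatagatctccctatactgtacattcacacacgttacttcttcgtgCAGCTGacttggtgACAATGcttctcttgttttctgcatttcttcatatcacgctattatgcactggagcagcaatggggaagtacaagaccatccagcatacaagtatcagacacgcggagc
Bcas1os2: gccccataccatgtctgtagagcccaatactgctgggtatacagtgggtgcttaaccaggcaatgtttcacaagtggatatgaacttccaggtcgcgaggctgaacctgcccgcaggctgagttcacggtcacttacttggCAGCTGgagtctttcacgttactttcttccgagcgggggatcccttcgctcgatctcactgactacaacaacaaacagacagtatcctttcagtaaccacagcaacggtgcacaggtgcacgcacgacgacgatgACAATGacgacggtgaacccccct

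OL-lineage cells came from 3 kinds of cluster, named OPC-like, mature OL-like and, between them, pre-OL-like. They numbered 543 in control and 944 in WMI. The clusters were made without the 10 genes and the 4 gate genes, though the gate genes were among the markers that named them. Each lineage cell was placed in 1 of 5 gates. The *Pdgfra*-only gate held cells with *Pdgfra* and no UMI of *Mog*, *Mobp* or *Mag* (195 control and 330 WMI cells). A second gate held cells with *Pdgfra* and at least 1 myelin UMI (75 and 78 cells). Cells with none of the 4 gate genes (98 and 313 cells) and cells without *Pdgfra* that had under 10 myelin UMIs per 10000 (myelin low, 78 and 166 cells) are called the premyelinating gates. The myelin-high gate held cells without *Pdgfra* at or above 10 per 10000 (97 and 57 cells). Between 5 and 20 per 10000, near this limit, lay 26 control and 59 WMI lineage cells.

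*Sox10*, the factor that defines the lineage, was present in every gate, at 164 to 264 UMIs in 1000000 UMIs (CPM) in control and 112 to 253 CPM in WMI. The premyelinating gates held 32.4% of lineage cells in control (176 cells, 28.5 to 36.5) and 50.7% in WMI (479 cells, 47.5 to 54.0). The myelin-high gate held 17.9% (14.7 to 21.3) and 6.04% (4.6 to 7.75). A gate that rests on the absence of UMIs depends on depth, and the median depths in the premyelinating gates were 4680 and 4199 UMIs. When every cell was thinned to 2000 UMIs, leaving out 3 control and 29 WMI cells, the premyelinating gates held 45.2% and 61.5%. The WMI-only sub-cluster gave 59 of the 479 WMI cells of these gates. The cells of these gates were also spread differently over clusters: 29.0% in control and 23.2% in WMI were of OPC-like clusters, 41.8% and 30.4% among cells with none of the 4 genes.

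Markers of other cells were present in the premyelinating gates. The 8 microglial markers, 0 of them at 0 UMIs, summed to 141 CPM in control and 504 CPM in WMI, against 4225 and 4237 CPM in microglia-like cells. The 8 astrocyte markers summed to 637 and 542 CPM, against 12110.1 and 10420.4 CPM in astrocyte-like cells. The 11 markers of excitatory neurons summed to 981 and 808 CPM, against 2377 and 2186 CPM in their own class, and the 10 of inhibitory neurons, with *Dlx1* at 0 in control, to 785 and 581 CPM, against 5912 and 9577 CPM. Of the 6 endothelial markers, 3 (*Cdh5*, *Slco1a4* and *Ly6c1*) were at 0 in control and 2 (*Cldn5* and *Slco1a4*) in WMI. The part of these other cells in the results was not tested.

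Against the *Pdgfra*-only gate, 9 of the 10 genes were at least 2-fold higher in the premyelinating gates of the control library, and *Gpr17* was 1.51-fold higher. Of all 1711 genes with at least 200 UMIs in that comparison, 8.18% were at least 2-fold higher. Of the 10 genes 8 had 200 UMIs there, and those under this number were counted too. In the WMI library it was again 9 of the 10, all but *Gpr17* at 1.83-fold, where 6.7% of 3418 genes were. The median log2 ratio of the 10 genes was 2.69 in control and 2.21 in WMI, and that of all genes tested was -0.06 and 0.03. The 10 genes were chosen with earlier results of these data known, so these values describe the list and are not a test of it. None of the 10 was at least 2-fold lower in either library (5.14% and 5.03% of all genes). From the premyelinating to the myelin-high gate, 8 genes were at least 2-fold lower in control (17.2% of all genes) and 7 in WMI (21% of all genes). Cells with none of the 4 gate genes, the earlier of the premyelinating gates, were at least 2-fold above the *Pdgfra*-only gate for 6 genes in control (4.69% of all genes) and 9 in WMI (4.66%), and 2-fold below it for 0 (2.38% and 3.92%). The myelin-low gate was at least 2-fold above them for 4 genes in control (5.25%) and 1 in WMI (2.47%), and 2-fold below for 0 (0.656% and 0.873%). From the premyelinating to the myelin-high gate, a single gene was at least 2-fold higher, *Fa2h* in control (14.9% of all genes) and *9630013A20Rik* in WMI (9.83%).

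**Figure D1:**
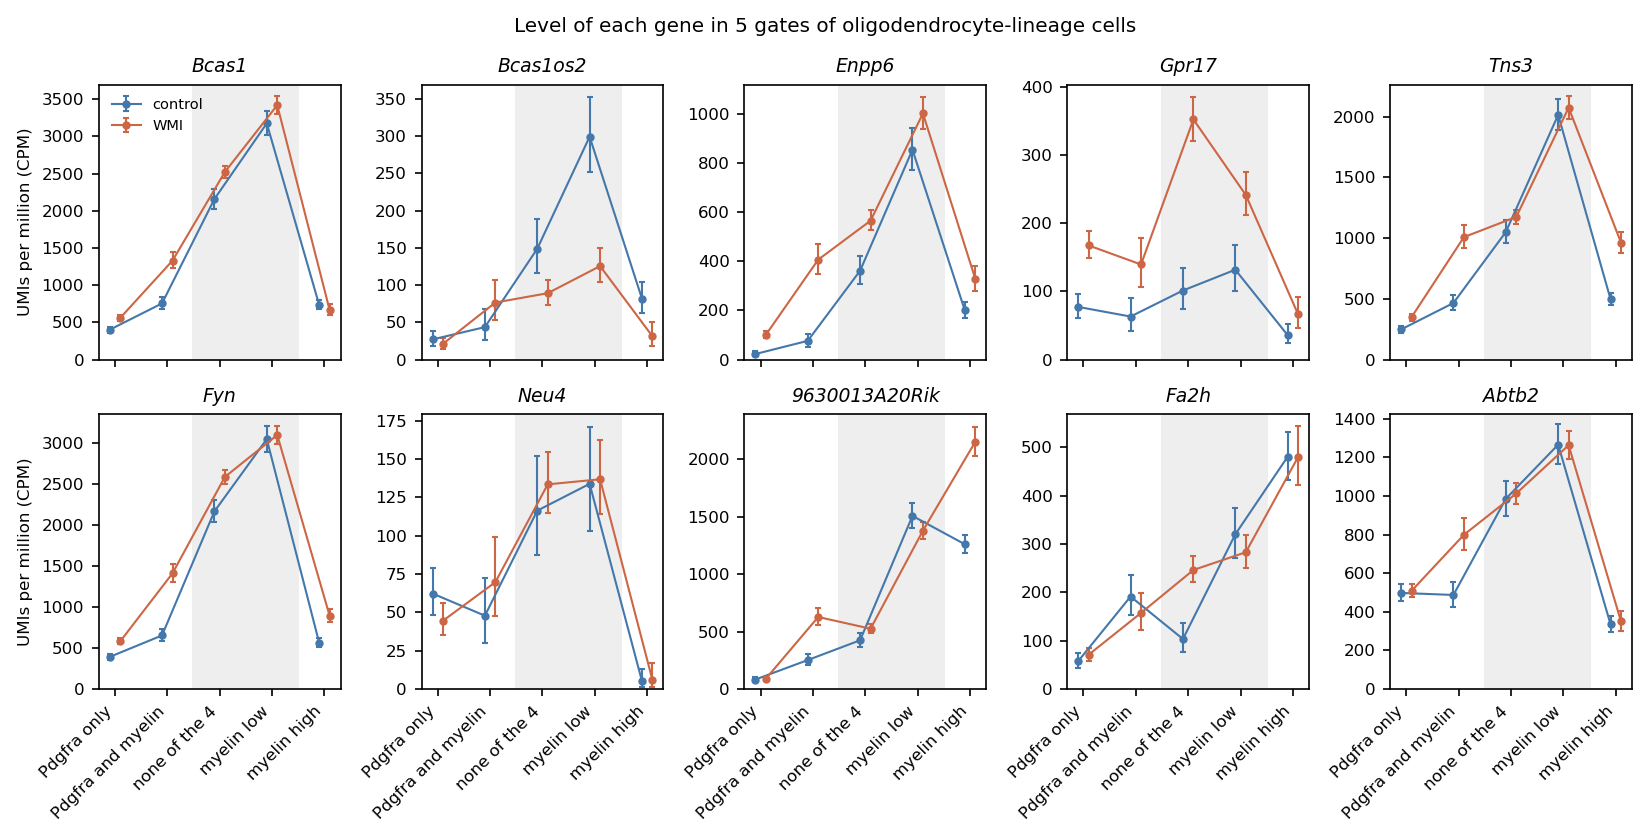
Level of each gene (CPM, linear axis from 0) in the 5 gates, with the control library in blue and the WMI library in orange. Bars are exact 95% Poisson intervals, the shaded gates are the premyelinating gates, and 9 of 10 genes in control and 8 of 10 in WMI have their highest point there. No share of all genes is given for this count.

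The receptor and the enzymes at the cell surface or in the secretory pathway are described first. *Gpr17* (ENSMUSG00000052229) encodes a G protein-coupled receptor that holds back the maturation of OLs. In control its level was 77.2 CPM in the *Pdgfra*-only gate, 63.1 with both *Pdgfra* and myelin UMIs, 101 in cells with none of the 4 genes, 132 in the myelin-low gate and 35.7 in the myelin-high gate. In WMI it was 167, 139, 352, 242 and 66.1 CPM in the same order. *Gpr17* was thus present before *Pdgfra* was lost, and its ratio of the premyelinating over the *Pdgfra*-only gate was the lowest of the 10 genes in both libraries. In control, the intervals of its 2 highest gates overlapped (74.4 to 135 and 101 to 169 CPM). In WMI the gate with none of the 4 genes was above the myelin-low gate (321 to 386 against 212 to 275 CPM), but the share of cells with a *Gpr17* UMI after thinning to 1000 UMIs was 19.8% in the former and 24.7% in the latter, so no order of these gates is read for this library.

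*Neu4* (ENSMUSG00000034000) encodes a sialidase, which removes sialic acids from glycans. Its control levels were 62.3, 47.8, 116, 134 and 5.10 CPM from the *Pdgfra*-only to the myelin-high gate, and its WMI levels 44.6, 69.7, 134, 137 and 5.83 CPM. The levels of both premyelinating gates lay within each other's intervals in each library. *Neu4* was lost more completely than any of the other 9 genes: the myelin-high gate held 4 UMIs in control and 3 in WMI, with log2 ratios against the premyelinating gates of -4.62 (-6.52 to -3.22) and -4.53 (-6.82 to -2.97).

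*Enpp6* (ENSMUSG00000038173), a phosphodiesterase that acts on lipids containing choline, was low in cells with *Pdgfra* in control. Its levels in control were 22.3, 76.1, 362, 855 and 200.2 CPM. In WMI they were 101, 407, 566, 1003 and 329 CPM. The premyelinating gates were 27.4-fold (18.3 to 43.2) above the *Pdgfra*-only gate in control, the largest ratio of the 10 genes, and 7.44-fold (6.35 to 8.78) in WMI. *Enpp6* then differed between the premyelinating gates, with the myelin-low gate 2.36-fold (1.97 to 2.85) and 1.77-fold (1.61 to 1.95) above cells with none of the 4 genes.

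The signalling and adhesion genes followed the same course at higher levels. *Fyn* (ENSMUSG00000019843) encodes a kinase of the Src family that acts in process outgrowth and early myelin synthesis. Its levels were 391, 652, 2161, 3041 and 565 CPM in control and 579, 1408, 2581, 3091 and 892 CPM in WMI. *Tns3* (ENSMUSG00000020422), an adaptor protein at integrin adhesions, had 247, 465, 1049, 2014 and 497 CPM in control and 349, 1008, 1174, 2074 and 962 CPM in WMI. Both genes were highest in the myelin-low gate, with intervals apart from the next gate in both libraries. In control *Fyn* was lost faster than *Tns3* on the way to the myelin-high gate, with log2 ratios of -2.21 (-2.36 to -2.06) and -1.63 (-1.79 to -1.47). In WMI these were -1.65 (-1.79 to -1.51) and -0.69 (-0.83 to -0.55).

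*Bcas1* (ENSMUSG00000013523), whose protein marks OLs at the onset of myelination, had with *Fyn* the most UMIs of the 10 genes in both premyelinating gates, in counts not corrected for gene length. Its levels were 400.0, 755, 2157, 3175 and 736 CPM in control and 558, 1329, 2521, 3419.9 and 667 CPM in WMI. The myelin-low gate was the highest in both libraries and its interval lay apart from that of the next gate. *Abtb2* (ENSMUSG00000032724), which encodes a protein with ankyrin repeats and a BTB domain, was already well detected in OPCs. Its levels were 498, 487, 985, 1265 and 335 CPM in control and 508, 799, 1013, 1263 and 350.0 CPM in WMI, so that its gain over the *Pdgfra*-only gate was 2.27-fold and 2.20-fold.

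*Fa2h* (ENSMUSG00000033579) encodes the fatty acid hydroxylase that makes the hydroxylated lipids of myelin, and was, with *9630013A20Rik*, higher in the myelin-high than in the premyelinating gates of both libraries. It had 57.7, 191, 103, 320.0 and 481 CPM in control and 71.1, 157, 246, 283 and 480.2 CPM in WMI. The myelin-high gate was the highest in both libraries. The myelin-low gate was 3.09-fold (2.22 to 4.37) above cells with none of the 4 genes in control and 1.15-fold (0.975 to 1.35) in WMI, intervals that do not overlap. Of the cells with none of the 4 genes, 41.8% in control and 30.4% in WMI were of OPC-like clusters. The part of this mix in the 2 steps was not tested.

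The noncoding genes were split. *9630013A20Rik* (ENSMUSG00000115529), a long noncoding RNA annotated as antisense to *Pcdh17*, had 82.8, 252, 425, 1508 and 1261 CPM in control and 89.1, 628, 525, 1380 and 2154 CPM in WMI. Its highest gate was the myelin-low gate in control and the myelin-high gate in WMI. Between the premyelinating gates it had the steepest step of the 10 genes in both libraries, 3.55-fold (3.03 to 4.18) and 2.63-fold (2.40 to 2.88). *Bcas1os2* (ENSMUSG00000086999), a noncoding RNA on the strand opposite to *Bcas1*, followed its host gene. It had 27.0, 43.5, 149, 299 and 81.6 CPM in control and 21.1, 76.5, 89.0, 125 and 31.1 CPM in WMI.

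A finer order came from a score of 12 mature OL markers minus 10 OPC markers, none of them among the 10 genes but the 4 gate genes among them, along which the lineage cells of each library were cut into 8 equal bins. The bins of the libraries do not match in stage, since each library was cut by its own cells, so the order is read within each. In control *Gpr17* was highest in bin 5, *Neu4*, *Abtb2*, *Fyn*, *Bcas1*, *Bcas1os2*, *Enpp6* and *Tns3* in bin 6, *9630013A20Rik* in bin 7 and *Fa2h* in bin 8. *Gpr17* first reached 50% of its highest level in bin 2, though it was at 38.8% in bin 4, and *Fyn* and *Abtb2* reached 50% in bin 5. *Mag* reached this in bin 7, and *Mog* and *Mobp* in bin 8, which the score itself favours. In WMI *Gpr17* was again highest in bin 5 and *Fa2h* in bin 8. There *Neu4*, *Abtb2* and *Fyn* were highest in bin 6, *Bcas1*, *Bcas1os2*, *Enpp6* and *Tns3* in bin 7 and *9630013A20Rik* in bin 8. For *Neu4*, *Abtb2*, *Fyn*, *Bcas1*, *Bcas1os2*, *Enpp6* and *Tns3* the WMI intervals of bins 6 and 7 overlapped. No order between these 2 bins is read there. By the highest bin, *Gpr17* came earliest in both libraries. *Fa2h* came latest, alone in control and together with *9630013A20Rik* in WMI. The *Fa2h* intervals of bins 7 and 8 overlapped in control (401 to 527 and 447 to 566 CPM). They also overlapped in WMI (276 to 370 and 357 to 443 CPM). By the first bin at 50% of the highest level, *9630013A20Rik* (bin 7 in both libraries) came after *Fa2h* (bin 6 in control and bin 5 in WMI). By this measure *Gpr17* came earliest in control only, and in WMI it shared bin 4 with *Neu4*, *Abtb2* and *Fyn*. The WMI intervals of *Neu4* in bins 5 and 6 also overlapped (127 to 195 and 141 to 209 CPM). No order of *Gpr17* before *Neu4* is therefore read in WMI. The interval of *Gpr17* in bin 5 overlapped that in bin 6 in control (113 to 201 and 85.2 to 155 CPM) and not in WMI (395 to 508 and 252 to 341 CPM). Without thinning, 42.6% of control cells in bin 5 and 41.2% in bin 6 held *Gpr17*. In WMI the share was 66.1% in each of these bins, so its peak in bin 5 rests on the level only.

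The last bins did not match in stage, so the loss at the mature end is not compared between the libraries. The median score was 1.77 in the last bin of control, 0.665 in bin 7 of control and 0.308 in the last bin of WMI. In the last bin of the control library *Fyn* was at 6.08% of its own highest level, *Tns3* at 7.41% and *Enpp6* at 16.1%. In bin 7 of control they were at 49.5%, 71.3% and 59.9%. In the last bin of the WMI library these were at 46.5%, 67.8% and 62.9%. The late myelin genes in this bin did not all go 1 way: *Mog* was at 1327 CPM in control and 603 CPM in WMI, *Mobp* at 3862 and 2135 CPM, and *Mag* at 1255 and 1342 CPM.

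**Figure D2:**
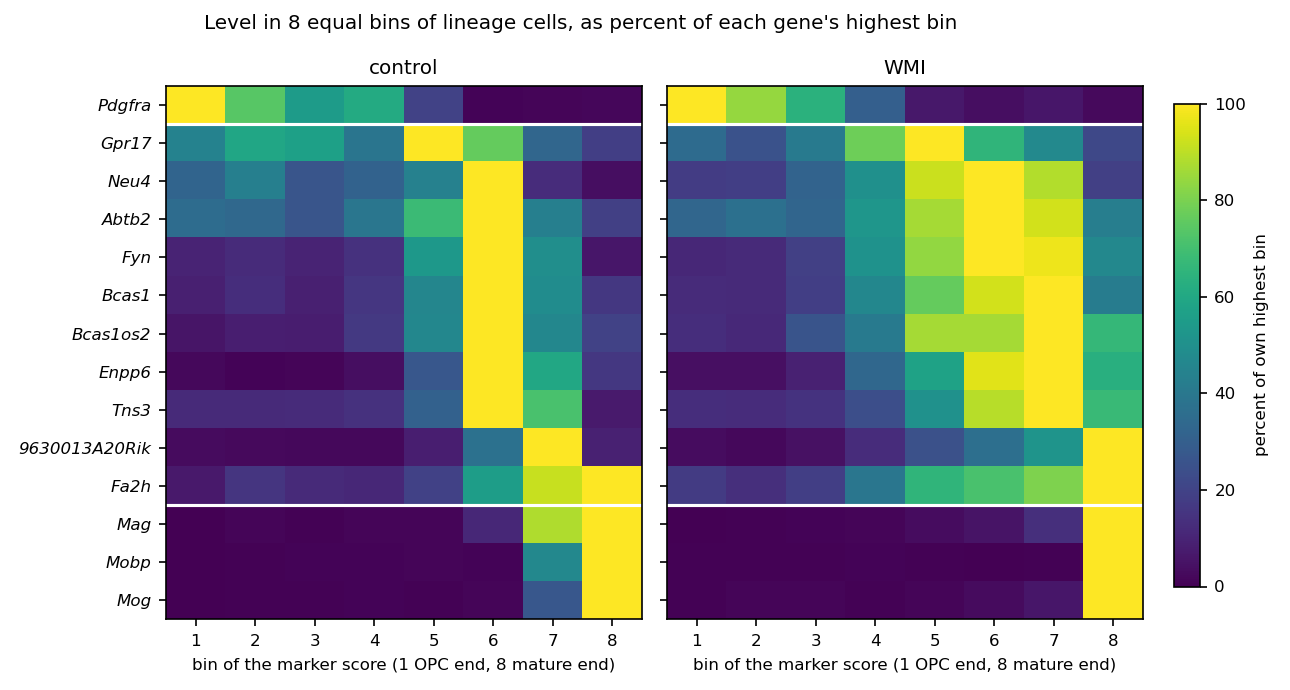
Level in 8 equal bins of lineage cells along a score of mature OL minus OPC markers (horizontal axis, 1 at the OPC end), as percent of the highest bin of each gene (colour). The control library is on the left and the WMI library on the right; gate genes stand above and below the white lines, with *Gpr17* brightest in bin 5 and *Fa2h* in bin 8 of both.

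The number of genes found per cell was higher in the premyelinating gates. After thinning to 1000 UMIs, the premyelinating gates held a median of 4 of the 10 genes per cell in control and 5 in WMI, and the *Pdgfra*-only gates a median of 1. At least 3 of the 10 genes were found in 70.5% of control and 77.2% of WMI cells of the premyelinating gates. In the other lineage gates this share was 18.5% and 21.5% (*Pdgfra* only), 29.3% and 44.9% (*Pdgfra* and myelin) and 38.1% and 57.9% (myelin high). Outside the lineage it was 0.449% and 0.871% in excitatory neuron-like cells. It was 0.624% and 2.06% in astrocyte-like cells and 0.698% and 5.04% in microglia-like cells. In cells with all their UMIs, 69 of 176 control cells of the premyelinating gates held *Gpr17*, of which 69.6% also held *Enpp6*, beside 59.7% of all cells of these gates. In WMI 288 of 479 held *Gpr17*, of which 79.5% held *Enpp6*, beside 69.5% of all. Both shares lay above that of all cells, a group that includes the cells with *Gpr17*, and depth was not made equal here.

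**Figure D3:**
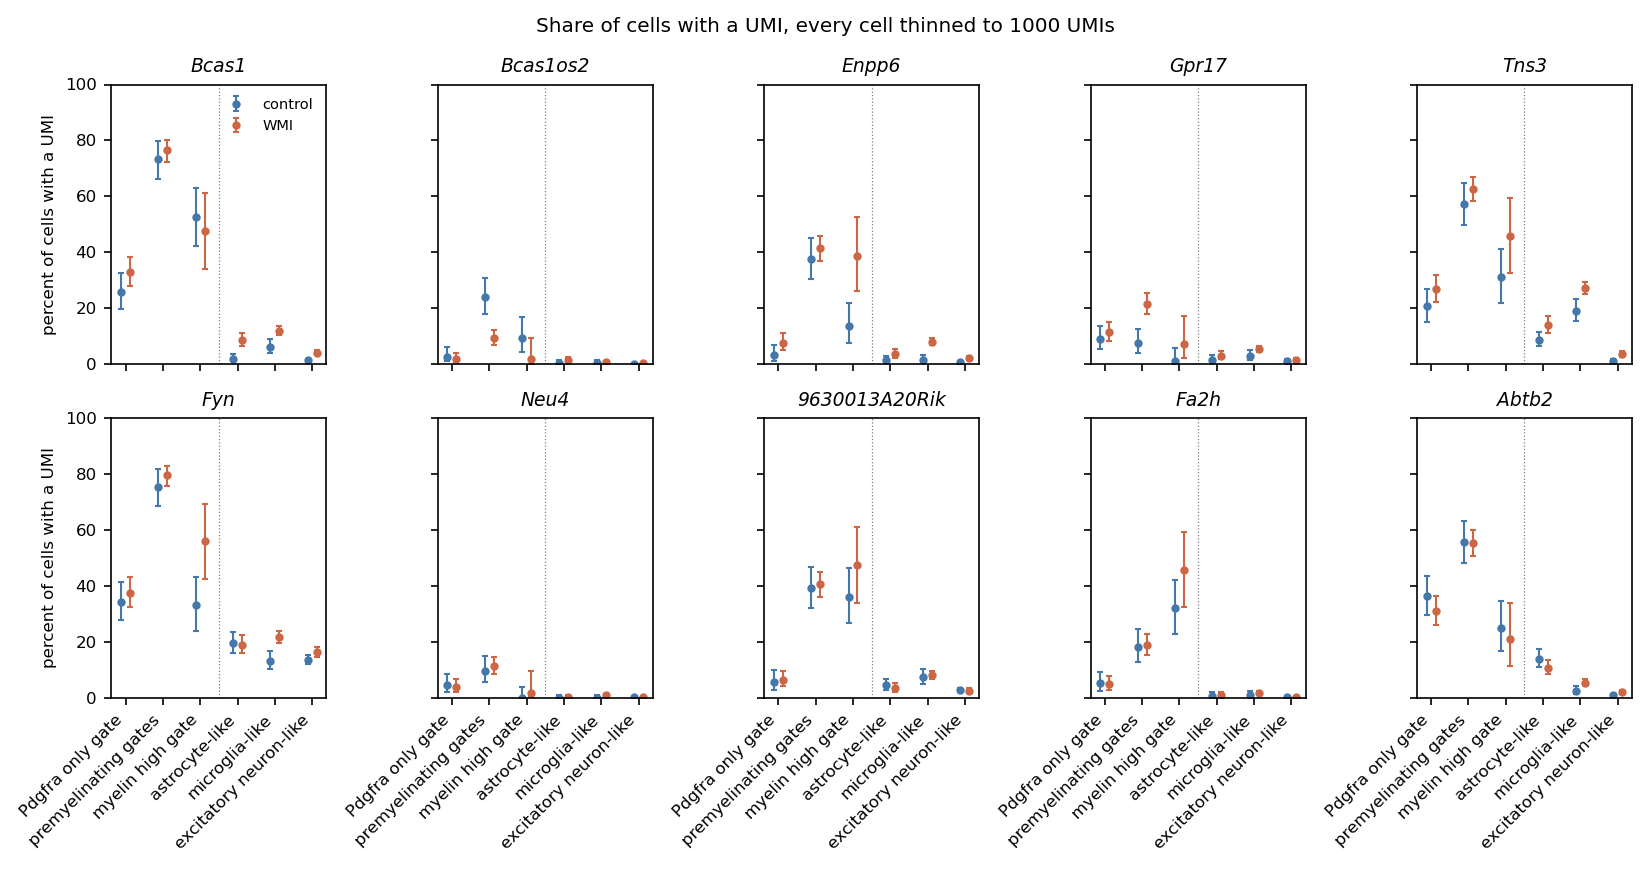
Percent of cells with at least 1 UMI of each gene (vertical axis) after every cell was thinned to 1000 UMIs, in 3 lineage gates and 3 classes outside the lineage, with the control library in blue and the WMI library in orange and exact 95% binomial intervals. *Tns3* and *Fyn* are also found outside the lineage, whereas *Neu4*, *Fa2h* and *Bcas1os2* are under 2% in all 3 classes.

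Of all UMIs of the 10 genes, the part that lay in lineage cells ranged from 23.1% (*Gpr17*) to 74.5% (*Bcas1*) in control and from 46.0% (*Fyn*) to 76.6% (*Fa2h*) in WMI. In excitatory neuron-like cells of clusters that both libraries shared (median 9739 and 9661 UMIs), which should lack most of these genes, *Gpr17* was at 9.02 and 16.3 CPM, *Enpp6* at 6.63 and 17.9 CPM and *Bcas1* at 13.7 and 35.8 CPM. The share of cells with a UMI there after thinning was 1.05% and 1.31% for *Gpr17*, and without thinning 9.35% and 16.6%. These levels are background for the lineage. For *Bcas1* they were 2.61-fold (2.27 to 3.01) higher in the WMI library, for *Enpp6* 2.70-fold (2.21 to 3.31) and for *Gpr17* 1.80-fold. For *Bcas1os2* the ratio was 1.09-fold (0.631 to 1.86).

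Some of the genes had levels of their own outside the lineage. *Tns3* was at 239 CPM in control and 363 CPM in WMI in microglia-like cells (median 3095.5 and 2550.0 UMIs), where 19.1% and 27.1% of cells held it after thinning. *Abtb2* was at 132 and 146 CPM in astrocyte-like cells, with 13.9% and 10.6% of cells. *Fyn* was found in every class, at 144 and 163 CPM in the shared excitatory neuron-like clusters and at 170 and 217 CPM in inhibitory neuron-like cells. For these genes a UMI alone does not place a cell in the lineage.

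Between the libraries, the levels in the premyelinating gates were within 1.5-fold for 8 of the 10 genes. Most genes were: of all 2827 tested, 3.89% were at least 1.5-fold higher in WMI and 3.04% at least 1.5-fold lower. *Bcas1* was at 2674 CPM in control and 2896 CPM in WMI, *Fyn* at 2608 and 2794 CPM, and *Tns3* at 1539 and 1550 CPM. The log2 ratios of WMI over control for these 8 genes ranged from -0.14 (*9630013A20Rik*, -0.26 to -0.03) to 0.29 (*Enpp6*, 0.15 to 0.43, and *Fa2h*, 0.06 to 0.53). Those of *Tns3* (-0.08 to 0.10), *Neu4* (-0.20 to 0.43) and *Abtb2* (-0.12 to 0.09) had intervals that include 0. The median over the 10 genes was 0.10, beside 0.03 over all 2827 genes tested.

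*Gpr17* was the 1 gene of the 10 at least 1.5-fold higher in the WMI library, where 3.89% of all genes were. Its level was 117 CPM in control (110 UMIs, 96.0 to 141) and 306 CPM in WMI (708 UMIs, 284 to 330), a log2 ratio of 1.39 (1.10 to 1.69). After thinning it was found in 7.39% of cells (3.99 to 12.3) of the control and 21.5% (17.9 to 25.5) of the WMI library, a difference of 14.1 points (8.03 to 19.3). Without thinning the shares were 39.2% and 60.1%. The ratio was 1.80 (1.36 to 2.26) in cells with none of the 4 genes, 0.87 (0.47 to 1.30) in the myelin-low gate, 1.12 (0.76 to 1.49) in the *Pdgfra*-only gate and 0.89 (0.12 to 1.66) in the myelin-high gate. *Gpr17* was therefore higher in WMI in each of these gates, and its background was higher too. On the log2 scale the background ratio was 0.85 (0.58 to 1.12) in excitatory and 0.99 (0.47 to 1.52) in inhibitory neuron-like cells. It was 1.26 (0.67 to 1.87) in astrocyte-like and 1.02 (0.50 to 1.58) in microglia-like cells. The ratio in the premyelinating gates was 1.43 without the WMI-only sub-cluster and 1.43 in male cells (139 control and 108 WMI cells). It was 0.99 when cells above 1% mitochondrial UMIs were left out. The part of the background and of the mitochondrial share in this difference was not tested. *Gpr17* overlaps *Lims2* on the opposite strand. *Lims2* was at 69.0 CPM in control and 46.7 CPM in WMI, in the other direction.

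*Bcas1os2* was the 1 gene at least 1.5-fold lower, where 3.04% of all genes were. Its level was 225 CPM in control (212 UMIs, 196 to 257) and 104 CPM in WMI (241 UMIs, 91.5 to 118), a log2 ratio of -1.11 (-1.38 to -0.84). After thinning it was found in 23.9% of cells (17.8 to 30.9) of the control and 9.19% (6.75 to 12.1) of the WMI library, and without thinning in 55.1% and 33.0%. The ratio was -0.74 (-1.18 to -0.29) in cells with none of the 4 genes, -1.25 (-1.62 to -0.89) in the myelin-low gate and -1.39 (-2.28 to -0.58) in the myelin-high gate, and in the *Pdgfra*-only gate its interval included 0 (-1.11 to 0.41). In the gate with both *Pdgfra* and myelin UMIs it went the other way, at 43.5 CPM in control and 76.5 CPM in WMI (0.81, -0.02 to 1.69). Within the premyelinating gates it was the 1 gene at least 1.5-fold lower in cells with none of the 4 genes (2.93% of all genes) and in the myelin-low gate (5.9%). At least 1.5-fold higher were *Gpr17*, *Fa2h* (1.25, 0.81 to 1.72) and *Enpp6* (0.64, 0.40 to 0.89) in the former (4.46%) and *Gpr17* alone in the latter (3.49%). The mix of OPC-like and pre-OL-like cells among cells with none of the 4 genes differed between the libraries. Its part in these ratios was not tested.

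**Figure D4:**
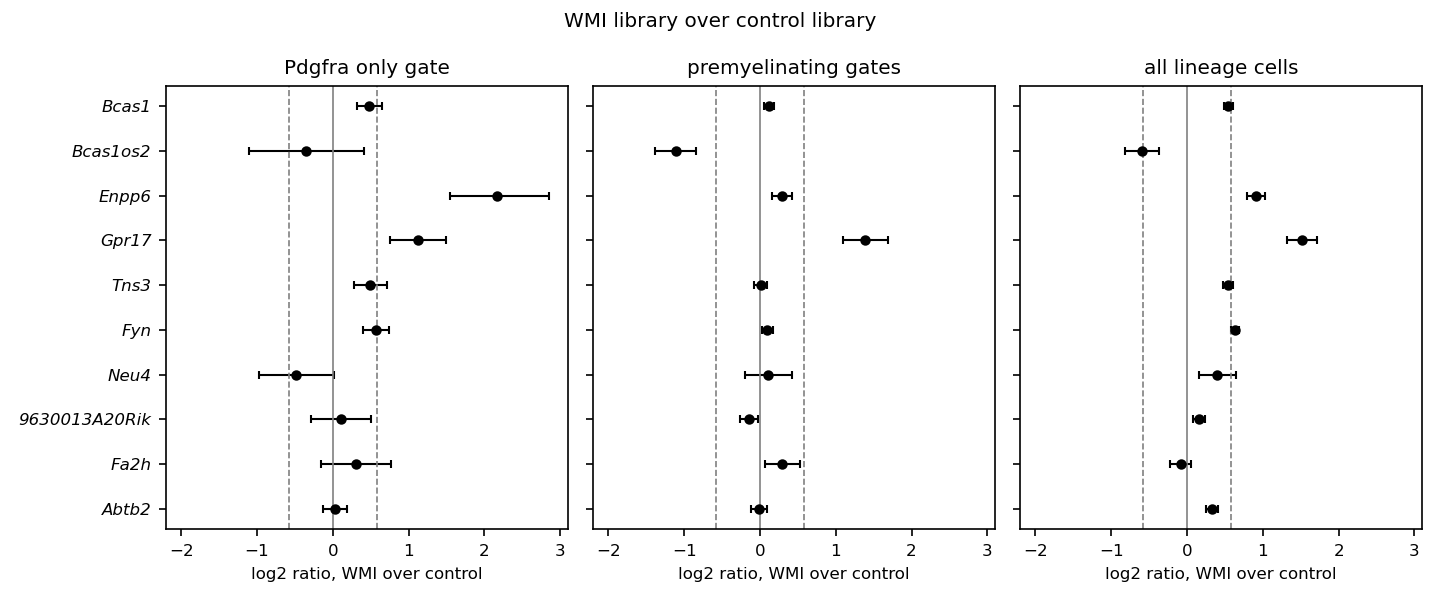
Log2 ratio of the WMI over the control library for each gene (horizontal axis) in the *Pdgfra*-only gate, the premyelinating gates and all lineage cells, with exact conditional 95% intervals. The dashed lines mark 1.5-fold in either direction; in the premyelinating gates *Gpr17* (1.39) and *Bcas1os2* (-1.11) lie outside them.

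*Bcas1os2* is annotated at chr2:170356361-170380435 on the plus strand of GRCm38, inside *Bcas1* (chr2:170346991-170427845, minus strand). Whether UMIs were assigned by strand is not given in the sources used here, so that reads of the pair may not be told apart in full. Of the UMIs of both genes, *Bcas1os2* made up 6.32% (4.27 to 8.95) in the *Pdgfra*-only gate of control, 6.45% (5.05 to 8.09) in cells with none of the 4 genes, 8.61% (7.30 to 10.1) in the myelin-low gate and 9.98% (7.77 to 12.6) in the myelin-high gate. In WMI these were 3.64% (2.55 to 5.03), 3.41% (2.84 to 4.07), 3.54% (2.94 to 4.21) and 4.46% (2.57 to 7.14). The share of the antisense gene was lower in WMI in each of these gates, with intervals that overlapped in the *Pdgfra*-only gate only, and was close in the gate with both *Pdgfra* and myelin UMIs (5.45% and 5.44%), while the level of *Bcas1* in the premyelinating gates differed by 1.08-fold (1.03 to 1.13). *Bcas1* was found in 95 of 97 control and 156 of 158 WMI cells with *Bcas1os2* in the premyelinating gates, beside 91.5% and 89.1% of all cells of these gates.

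**Figure D5:**
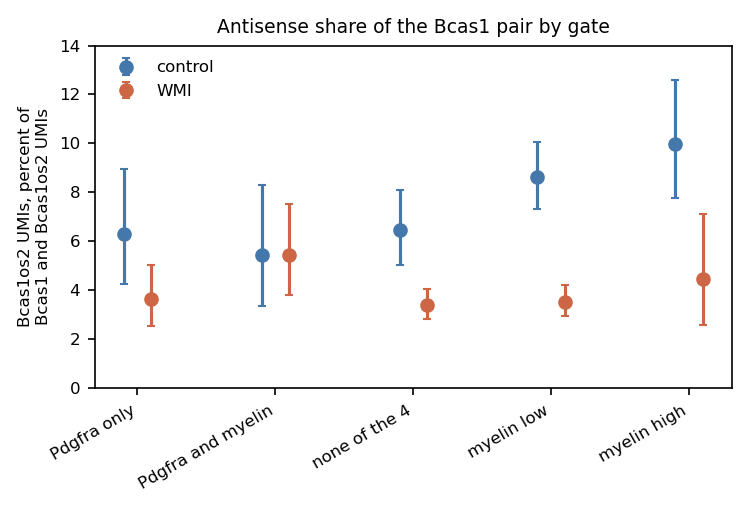
*Bcas1os2* UMIs as percent of the UMIs of *Bcas1* and *Bcas1os2* (vertical axis) in the 5 gates, with exact 95% binomial intervals, control in blue and WMI in orange. The control points lie between 5.45% and 9.98% and the WMI points between 3.41% and 5.44%.

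The other gates were compared in the same way. In the *Pdgfra*-only gate *Enpp6* was at 22.3 CPM in control and 101 CPM in WMI, a log2 ratio of 2.17 (1.55 to 2.85), and it and *Gpr17* were the 2 genes of 10 at least 1.5-fold higher (2.99% of all genes), with 0 genes lower (2.18%). The WMI level of *Enpp6* in microglia-like cells was 59.5 CPM and the control level 24.2 CPM, so that the *Pdgfra*-only gate of control lay at that background. In the myelin-high gate 5 genes were at least 1.5-fold higher in WMI, where 5.96% of all genes were: *Tns3* (0.95, 0.76 to 1.15), *Gpr17*, *9630013A20Rik* (0.77, 0.65 to 0.90), *Enpp6* (0.71, 0.39 to 1.04) and *Fyn* (0.66, 0.47 to 0.85). The log2 ratios of *Mag* and *Mog* in the same gate were 0.49 (0.37 to 0.62) and -0.23 (-0.40 to -0.06). *Bcas1os2* was the 1 gene at least 1.5-fold lower there (9.8% of all genes). Of the cells of this gate, 83.5% in control and 80.7% in WMI were of the mature OL-like cluster. When lineage cells were clustered alone, 83.5% and 68.4% lay in the mature OL-like sub-cluster. Within it *Enpp6* was at 124 CPM in control and 130 CPM in WMI. *Tns3* was at 237 and 488, *Gpr17* at 30.9 and 63.7, *9630013A20Rik* at 712 and 1595 and *Fyn* at 272 and 451 CPM. The part of this mix was not tested. In the gate with both *Pdgfra* and myelin UMIs 8 of the 10 genes were at least 1.5-fold higher in WMI, where 11.1% of all genes were, and 0 were lower (5.97%). That gate held 75 control and 78 WMI cells. Of these, 81.3% in control and 60.3% in WMI were of OPC-like clusters, and 6.67% and 34.6% were of pre-OL-like clusters. The part of this mix in the ratios was not tested, nor whether doublets that were not removed are among these cells.

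Sums over all lineage cells also depend on how many cells each gate holds. There 3 genes were at least 1.5-fold higher in WMI, *Gpr17* (1.52, 1.32 to 1.72), *Enpp6* (0.91, 0.79 to 1.03) and *Fyn* (0.64, 0.58 to 0.69), where 5.11% of all genes were. *Bcas1os2*, at -0.59 (-0.82 to -0.37), was the 1 gene at least 1.5-fold lower, where 3.78% were. *Bcas1* (0.55) and *Tns3* (0.54) lay just under the limit of 1.5-fold, and *Bcas1os2* just past it. Without the WMI-only sub-cluster 5 genes were past it upward and 0 downward. When each gate was given equal weight, 2 were past it upward and 0 downward. The shares of all genes given here are those of the main setting and not of these alternatives.

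Of 18 further genes known for committed precursors and newly formed OLs, 10 of which had also served to name clusters, 15 in control (8.18% of all genes) and 15 in WMI (6.7%) were at least 2-fold higher in the premyelinating gates than in the *Pdgfra*-only gate. Of the 18, 8 in control and 12 in WMI had the 200 UMIs that the shares over all genes ask for. *Casr*, at 0 UMIs in the *Pdgfra*-only gate of WMI, was counted there at its bound of 3 UMIs, and in control it was at 1 and 0 UMIs and was given no ratio. The median log2 ratios were 2.36 and 2.12. Among them *Tcf7l2*, a transcription factor of the Wnt pathway needed for OL differentiation, was at 159 CPM in the *Pdgfra*-only gate and 1361 CPM in the premyelinating gates of control. *Nfasc*, an adhesion molecule of the axon and glia, was at 193 and 2178 CPM. Toward the myelin-high gate the list split, with 7 lower (17.2% of all genes) and 4 higher (14.9%) in control and 6 lower (21%) and 4 higher (9.83%) in WMI. *Bmp4*, a growth factor, was lower by a log2 ratio of -4.50 (-6.15 to -3.24) in control, and *Cnksr3*, a scaffold protein, was higher by 2.39 (2.19 to 2.59).

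Between the libraries, 3 of the 18 were at least 1.5-fold higher (3.89% of all genes) and 1 lower (3.04%) in the premyelinating gates of WMI, with a median of 0.12. Of the 18, 13 had at least 200 UMIs in this comparison. *Nkx2-2*, a homeodomain factor of early differentiation, was at 72.2 CPM in control and 162 CPM in WMI (1.17, 0.79 to 1.56), and *Bmp4* at 144 and 254 CPM (0.82, 0.55 to 1.10). *Rras2*, a small GTPase, was at 87.0 and 41.9 CPM (-1.05, -1.49 to -0.61). *Tcf7l2* did not differ beyond counting error (0.00, -0.09 to 0.10).

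The genes outside the list with the most similar pattern were found from the Pearson correlation of log2(CPM + 10) over 26 points, the 5 gates, the other cell classes and the unnamed cells of both libraries, among 5876 genes. These points share libraries and depth, and the values are descriptions. *Gpr17* was closest to *Nkx2-2* (0.94), *Bcas1* to *Prkcq* (0.97), *Tns3* to *Itpr2* (0.94) and *Fyn* and *Abtb2* to *Arhgap35* (0.94 each). *Enpp6* was closest to *Plxnb3* (0.94) and *Bcas1os2* to *Chst3* (0.94). *Neu4* was closest to *A930009A15Rik* (0.98), *9630013A20Rik* to *Rinl* (0.98) and *Fa2h* to *Myrf* (0.98), the factor that drives myelin genes. Among the 10 genes the most alike were *9630013A20Rik* and *Fa2h* (0.96) and the least alike *Neu4* and *9630013A20Rik* (0.67). In the myelin-high gate of both libraries *Neu4* was nearly absent and *9630013A20Rik* was high.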

How the data were processed

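Per the labels and file headers, the authors deposited raw counts: a whole number of UMIs for each pair of gene and barcode, from Cell Ranger 6.1.1, with no normalization. The labels name Seurat and the build mm9, whereas all 55450 gene identifiers matched GENCODE M21 on GRCm38, which gave the coordinates. Groups came from the labels.

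Cells were kept from 1000 UMIs and 500 genes and up to 10% mitochondrial UMIs, which dropped 748 control and 241 WMI barcodes. Predicted doublets were removed at 0.8% per 1000 barcodes (785 and 542), a step that found 416 and 385 of 500 artificial doublets added to each library. Counts were integrated with Seurat 5.3.0 in R 4.3.3 (2000 features, 30 dimensions, resolution 0.8), leaving the 10 genes and the 4 gate genes out of the features. Of 31 clusters 25 were named from marker lists. Naming required 3 or more markers that made up 40% of a list, limits chosen once the clusters had been seen. A cluster short of this was still named a neuron class if 60% of that list passed a looser cut. This second rule also required that no class other than neurons had 3 markers. Several excitatory neuron-like clusters were named by it, some of them among those that both libraries shared. A cluster with 60% of the markers of an unrelated class stayed unnamed, among them a cycling cluster that mixed microglia and OPCs.

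Levels are UMIs of a gene over all UMIs of the cells, times 1000000 (CPM). Shares of positive cells were computed after thinning to 1000 UMIs, which left out 0 lineage cells. Ratios between gates were called from 2-fold and between libraries from 1.5-fold, beside all genes with at least 200 UMIs. The 10 genes were counted whether or not they had 200 UMIs. Only 5 of them did for cells with none of the 4 genes over the *Pdgfra*-only gate in control. No test was run. The ratio and its interval were also run on simulated Poisson counts with known fold changes. These counts hold no spread between cells or libraries, so the run does not bear on such spread. Genes are named from the 10 genes, the gate genes, the further lineage genes, the marker lists and the genes most correlated with each member. The genes and lists were chosen with earlier results of these data known. Analyses used Python 3.11.15, numpy 2.4.6, scipy 1.17.1, pandas 2.3.3, scikit-learn 1.9.0 and matplotlib 3.10.9. The alternatives are given in the closing section.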

Additional observations from a re-analysis of the deposited data

How the results depend on the processing

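The 10 genes were recomputed under 15 alternatives listed at the outset and 2 chosen after seeing the data (the pre-OL-like cluster in place of the gates, and leaving out the WMI-only sub-cluster led by mitochondrial genes). Some of the 15 were also applied, after seeing the data, to results they had not been listed for. The number of genes highest in the premyelinating gates was 9 in control under each alternative run, and 8 in WMI except for male cells, where it was 7. No share of all genes is given for these counts. In the premyelinating gates, *Gpr17* at least 1.5-fold higher and *Bcas1os2* at least 1.5-fold lower held under all alternatives, with log2 ratios from 0.99 to 1.47 and from -1.19 to -0.76. Thinning to 2000 UMIs before gating gave 2 genes higher, the other being *Enpp6* (0.64). Ratios of *Tns3* and *Abtb2*, whose intervals included 0, changed sign under 5 and 9 of 15 alternatives (-0.13 to 0.27 and -0.043 to 0.14). Ratios near 0 with intervals that excluded it changed sign for *Fyn* (-0.0021) and *Fa2h* (-0.039) in sub-clusters, *Fa2h* (-0.022) in the pre-OL-like cluster, and *9630013A20Rik* in male cells (0.056) and with equal gate weights (0.088). The largest move of *9630013A20Rik* was the other way, to -0.55 in the pre-OL-like cluster. Its share difference there was -7.58 points. Shares of all genes past 1.5-fold are given for the main setting only. Over all lineage cells, the count of genes higher was 5 in place of 3 with doublets kept and without the sub-cluster. The count of genes lower was 0 in place of 1 with doublets kept, with at least 2000 UMIs per cell, at resolution 1.6, with totals without mitochondrial genes, in male cells, with equal gate weights and without the sub-cluster, where *Bcas1os2* lay between -0.58 and -0.44. Genes called higher in WMI by their share of positive cells numbered 1 in the main setting. They numbered 5 with gating on 2000 UMIs, 3 with doublets kept and 4 at a mitochondrial limit of 1%. They numbered 2 without thinning, 2 when thinned to 2000 UMIs and 4 without the sub-cluster. These calls rest on more than the sign. Main-setting differences were positive for *Gpr17* (14.1 points), *Tns3* (5.24), *Fyn* (3.97), *Enpp6* (3.84) and *Bcas1* (3.11). So were those of *Neu4* (1.61), *9630013A20Rik* (1.30) and *Fa2h* (0.61), while *Abtb2* (-0.36) and *Bcas1os2* (-14.7) were negative. No share of all genes is given for these calls. The causes were not tested. No paired analysis was possible because each group had 1 library and no test was run. With 110 to 212 UMIs in the control premyelinating gates, *Gpr17*, *Neu4*, *Fa2h* and *Bcas1os2* carry the widest intervals.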
